A study of Mus musculus with 17 samples.

Results

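MEK inhibition in PDGF-treated cells was measured on 3 of the 17 arrays of the series: PDGF with UO126, PDGF with PD98059, and PDGF without an inhibitor, chosen by their labels. All 3 come from a 6-array MEK experiment in NIH 3T3 cells, an immortalised mouse embryonic fibroblast line made quiescent before treatment. PDGF was given at 25 ng/ml, UO126 at 10 µM and PD98059 at 7.5 µM, so the inhibitor doses differed, and the time in PDGF is not given in the sources used here. The other 3 arrays of that experiment held UO126 alone, PD98059 alone and untreated quiescent cells. Each condition was 1 array, and the UO126 and PD98059 arrays served as 2 replicates of MEK inhibition. The labels do not tell whether arrays stand for separate cultures, so their spread may be technical. Both inhibitor arrays were set against the same single PDGF array, so any error of that array enters both differences.

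PDGF, a mitogen for fibroblasts, activates its receptor tyrosine kinases, and through RAS and RAF the kinase MEK. MEK phosphorylates and activates ERK, which acts on transcription factors at the promoters of immediate early genes, among them FOS and EGR family members. ERK output also induces its own inhibitors, such as the phosphatase DUSP6. UO126 and PD98059 are unrelated small molecules that bind MEK outside its ATP site.

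Arrays outside the MEK comparison bear on it as well. The Src experiment, on another array design, held PDGF with UO126 (10 µM), with SU6656 (2 µM, a Src family inhibitor) or with LY294002 (7.5 µM, a PI3K inhibitor), PDGF, each inhibitor alone, and vehicle, with PDGF for 1 h at the same dose. A repeat of the Src experiment, on the design of the MEK experiment, held PDGF with SU6656, PDGF and vehicle. Deposited array medians were 133.7, 144.1 and 148.8 signal units on the PDGF+UO126, PDGF+PD98059 and PDGF arrays, and 3′ to 5′ signal ratios of the Gapdh control were 0.902, 0.828 and 0.907. Fibroblast markers were clearly measured: 14 of 14 on the array were above the filter on low signal, led by the collagen gene Col1a1, and their summed signal was 90312, 94450 and 84897 on the same 3 arrays. The summed signal of leukocyte markers was 1130, 1412 and 1464, with Adgre1, Cd3e, Itgam and Ptprc below the filter. That of epithelial markers was 504.8, 575.8 and 728.9, that of endothelial markers 406.7, 707.0 and 742.5, and that of adipocyte and muscle markers 3073, 2487 and 3486. The sums of the 4 other cell types were lower with both inhibitors than with PDGF alone, and the fibroblast sum was higher. A large part of each of the 4 sums was 1 gene. Over the 9 arrays of that design, means were 1096 units for Cd14, 341.4 for Cdh1, 580.4 for Eng and 1316 for Acta1. The sums also hold genes below the filter, so they do not measure the share of a cell type. The part of other cell types in the results was not tested. In bulk RNA, fewer cells of a type and less RNA per cell cannot be told apart.

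No single probe set passed the test of MEK inhibition under PDGF. In the limma fit with Benjamini-Hochberg adjustment, 0 of 8695 probe sets were called (0%), the smallest adjusted p was 0.135, and 600 probe sets had an unadjusted p under 0.05, 250 lower and 350 higher. The spread in this fit comes from 2 residual degrees of freedom, which are differences between UO126 and PD98059. Among genes read at their brightest probe set, the lowest adjusted p values in the direction of lower signal belonged to Procr (0.135), Dusp6 (0.135), Nr4a2 (0.173), Sgk1 (0.173) and Errfi1 (0.195). In the direction of higher signal they belonged to Ctrl (0.135), Hyal2 (0.135), Snai2 (0.173), Isoc1 (0.173) and Tcp11 (0.248). Genes are therefore described below by a fold rule, without a claim for any one gene.

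A gene was counted as lowered, or as raised, where both inhibitor arrays lay at least 1.5-fold below, or above, the PDGF array at its brightest probe set. Of 6366 genes, 144 were lowered (2.26%) and 227 were raised (3.57%). Where a gene had several probe sets, their changes differed in sign in 9 of 21 lowered and 16 of 24 raised genes. How often this happened over all genes was not counted. At 2-fold the counts were 35 lowered (0.55%) and 73 raised (1.15%). Scaling the arrays as deposited, without quantile normalisation, turned the split to 206 lowered and 175 raised. Taken singly, UO126 lowered 402 genes and raised 436, and PD98059 lowered 454 and raised 499. The genes nearest the threshold were Akap8 (log2 changes of -0.59 with UO126 and -1.08 with PD98059) inside the lowered set and Reep1 (-0.58 and -0.87) outside it. On the raised side, Stat5b (1.66 and 0.59) was just inside and Smim20 (0.58 and 0.76) just outside.

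**Figure D1:**
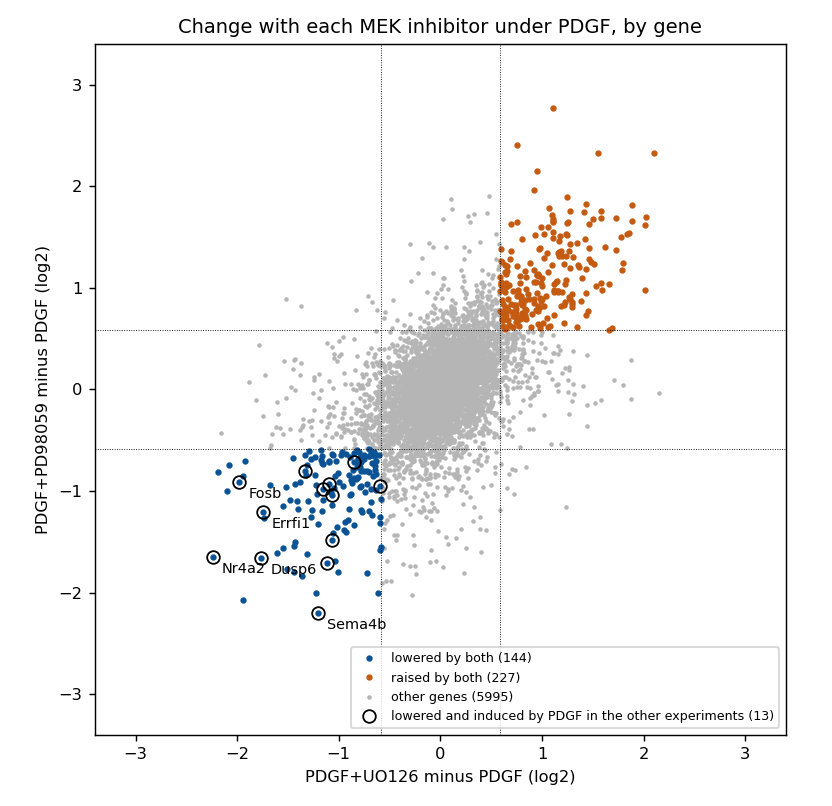
Each point is 1 of 6366 genes, with its log2 change with UO126 under PDGF on the x axis and with PD98059 under PDGF on the y axis, and dotted lines at 1.5-fold. The 144 lowered genes fill the lower left corner and the 227 raised genes the upper right, and both axes share the PDGF array.

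The clearest lowered group was made of growth factor response genes. PDGF induced 67 genes at least 2-fold both in the repeat and in the Src experiment (1.21% of 5537 genes measured in both tables), and none of these arrays entered the MEK comparison. Of the 67, 13 were lowered (19.4%) and 2 were raised (2.99%), against 1.68% lowered and 3.32% raised of the 5537 genes. Both inhibitor changes were below 0 for 44 of the 67 genes (65.7%), against 30.1% of the 5537. They were above 0 for 11 and of opposite sign for 12. The 13 lowered genes were Cebpb, Dusp6, Ereg, Errfi1, Fosb, Fosl1, Hbegf, Nr4a2, Phlda1, Plaur, Sema4b, Sgk1 and Tiparp. Their median log2 change was -1.15 with UO126 and -1.04 with PD98059, within ranges of -2.24 to -0.60 and -2.20 to -0.72.

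Feedback inhibitors of ERK and receptor tyrosine kinase signalling came first. Dusp6, the phosphatase that inactivates ERK, had 675.1 and 725.5 signal units with PDGF+UO126 and PDGF+PD98059, against 2349 with PDGF. Without PDGF it had 44.3 with UO126 and 56.0 with PD98059, against 73.7 in untreated cells. The inhibitor arrays under PDGF thus lay between PDGF and the 3 arrays without it, and no values overlapped. Its mean log2 change was -1.71 (SE 0.23, adjusted p = 0.135 in limma), a fold of 3.28. Errfi1, an inhibitor of the EGF receptor, had 2122 and 3123 signal units with PDGF and the inhibitors, against 6828 with PDGF, and 245.6, 245.1 and 281.6 on the arrays without PDGF. Its mean change was -1.48 (SE 0.24, adjusted p = 0.195), and its 2 probe sets gave nearly the same value (-1.48 and -1.47). Phlda1, a pleckstrin homology-like protein induced by growth factors, had 1133 and 741.3 units, against 2477 with PDGF.

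Of the list of receptor tyrosine kinase feedback inhibitors, 3 of 18 measured genes were lowered (Errfi1, Phlda1 and Dok2) and 0 raised, with 0 limma calls. Over all genes 2.26% were lowered and 3.57% raised, and the list counts that follow are to be read beside these shares. The median of their mean changes was -0.19, against 0.01 over all genes. Dok2, a docking protein, was dim, with 20.8 and 55.4 units under the inhibitors and 127.9 with PDGF, and was at 153.9 in untreated cells. Ier3, an early response gene of the same list, had 3708 units with PDGF+UO126 and 1599 with PDGF+PD98059, against 3740 with PDGF. Of 6 MAP kinase phosphatases, Dusp6 was lowered and 0 were raised. Dusp1 had 2161 units with PDGF+UO126 and 1000.4 with PDGF+PD98059, against 2000.1 with PDGF. Dusp2 had 188.9 and 63.3, against 291.3. Of Ier3, Dusp1 and Dusp2, the PD98059 values were below that of PDGF by more than 1.5-fold, and the doses of the inhibitors differed.

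Of 14 AP-1 and ATF factors, Fosb and Fosl1 were lowered and 0 raised. Fosl1, which encodes the AP-1 subunit FRA1, had 699.3 and 706.9 units under PDGF with the inhibitors, against 1486 with PDGF and 138.9 in untreated cells. Fosb had 643.5 and 1379, against 2610 with PDGF and 316.4 in untreated cells. Fos, the founding member, had 1246 with PDGF+UO126 and 732.3 with PDGF+PD98059, against 1370 with PDGF, so its UO126 value was close to that of PDGF alone. Junb, named after its values were seen, had 1727 and 2329, against 2428. Atf4, a stress response factor, was on the other side, with 4193 and 7022 units against 3503 with PDGF.

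Among 15 EGR, NR4A and KLF factors 1 was lowered and 0 raised. Nr4a2, an orphan nuclear receptor, had 271.9 and 434.3 units with PDGF and the inhibitors, against 1429 with PDGF, and 77.9, 61.9 and 44.9 on the arrays without PDGF. Its mean log2 change was -1.94 (SE 0.30, adjusted p = 0.173 in limma), the lowest of the 13 genes. Nr4a1 had 8393 and 7820 units, against 10064 with PDGF, and Egr2 had 2161 and 2375, against 3309. Egr1, named after its values were seen, had 1853 and 2206, against 2713 with PDGF. Inhibitor values of all 3 were lower than that of PDGF and stayed inside the 1.5-fold limit in at least 1 of the 2 arrays. Of 28 other early response regulators, Sgk1, Tiparp and Cebpb were lowered and Gadd45a was raised. Sgk1, the serum and glucocorticoid regulated kinase, had 4083 and 4529 units, against 8098 with PDGF, and 1975 in untreated cells (mean log2 change -1.07, SE 0.16, adjusted p = 0.173 in limma). Tiparp, a mono-ADP-ribosyltransferase, had 996.5 and 1096, against 2109 with PDGF and 157.7 in untreated cells. Cebpb, a bZIP factor, had 4555 and 4974, against 7649 with PDGF and 3166 in untreated cells.

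Of 5 measured EGF family genes, the EGF receptor ligands Hbegf and Ereg were lowered and Egf, also a ligand, was raised. Hbegf had 591.0 and 432.5 units with PDGF+UO126 and PDGF+PD98059, against 1261 with PDGF and 319.6 in untreated cells. Ereg, which encodes epiregulin, had 267.1 and 408.0, against 731.0 with PDGF and 27.1 in untreated cells. Egf was dim, with 92.4 and 78.5 units with the inhibitors, against 15.3 with PDGF. Plaur, the urokinase receptor, had 614.4 and 477.2 units, against 938.6 with PDGF. Sema4b, a transmembrane semaphorin, had 235.8 and 111.5, against 603.4 with PDGF and 184.9 in untreated cells, and its 3 probe sets ranged from -1.70 to -0.33 in mean change. Its PDGF+PD98059 array lay below the untreated array, the exception among the 13 genes. In the other 12 both inhibitor arrays stayed above untreated cells.

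**Figure D2:**
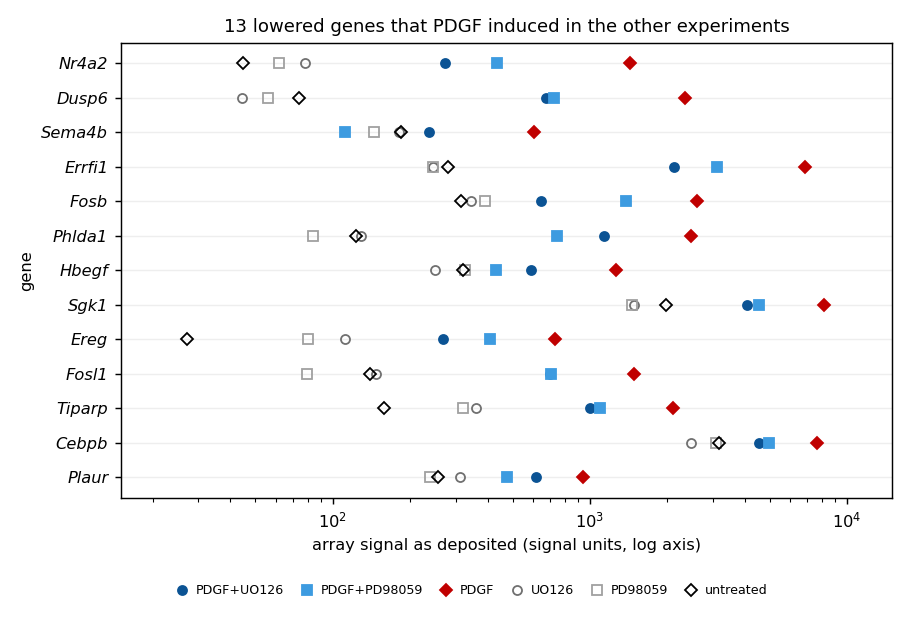
Deposited signal of the 13 lowered genes that PDGF induced in the other experiments, on a log axis, with 1 marker per array of the MEK experiment. In every gene the PDGF array lies above both arrays of PDGF with an inhibitor, and in all but Sema4b those lie above the untreated array.

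The share of the PDGF induction that was left, taken as the inhibitor array above untreated divided by the PDGF array above untreated, had a median of 31.0% with UO126 and 40.3% with PD98059 over the 13 genes. It was lowest in Sema4b and highest in Plaur with UO126 (12.2% and 52.4%). With PD98059 it ran from -17.5% in Sema4b, whose array lay below untreated cells, to 54.1%. In Dusp6 it was 26.4% and 28.6%, in Errfi1 28.1% and 43.4%, and in Nr4a2 16.4% and 28.1%. Over 55 of the 67 induced genes for which it could be taken, the medians were 73.0% and 73.5%. The 13 were chosen by this contrast, so the shares describe them and are no test.

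The Src experiment held UO126 on other arrays. The 67 induced genes were required to be high on its PDGF array, and the UO126 change subtracts that same array, so a change below 0 is partly set by the choice of genes, and the other induced genes are the matching background. UO126 lowered 209 of 5537 genes at least 1.5-fold there (3.77%) and raised 209 (3.77%). All 13 genes had UO126 changes below 0 there, with a median of -1.14 (range -1.70 to -0.24), against a median of 0.01 over all 5537 genes. Of the 13 genes, 10 were at least 1.5-fold lower (76.9%). Of the 52 induced genes neither lowered nor raised in the MEK experiment, 9 were at least 1.5-fold lower (17.3%), with a median of -0.24. Over all 67 the share was 28.4% and the median -0.28. The 13 genes were also the more strongly induced, with a median log2 change with PDGF of 3.09 in the Src experiment, against 1.91 for the 52. Dusp6 had 593.4 units with PDGF+UO126 against 1397 with PDGF, and 17.3 with UO126 alone against 63.5 with vehicle. Errfi1 had 3110 against 7901, Sgk1 had 3233 against 6923, Fosb had 738.6 against 2521, and Fosl1 had 780.9 against 1836. Hbegf had 843.6 with PDGF+UO126 against 2072 with PDGF, and Ereg had 502.1 against 1249. Phlda1, Nr4a2 and Cebpb were lower by less than 1.5-fold (log2 changes of -0.37, -0.56 and -0.24). These are single arrays without a replicate, and levels are not compared between the array designs.

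Values with the other inhibitors of the Src experiment stand beside these. Over the 13 genes, which were chosen for low values with MEK inhibitors, the median log2 change under PDGF was -0.34 with SU6656 and -0.05 with LY294002. Over all 67 induced genes it was -0.50 with SU6656, -0.01 with LY294002 and -0.28 with UO126. With SU6656, 6 of 13 were at least 1.5-fold lower, and with LY294002, 0 of 13. These counts were not taken over the 67 genes, whose SU6656 median was lower than that of the 13. They are therefore not read as a trait of the 13. Dusp6 changed by -0.98 with SU6656 and by 0.39 with LY294002. Fosb changed by 0.05 and -0.23. All 3 inhibitor differences share the PDGF array of that experiment.

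The remaining lowered genes were not chosen for a high value on the Src PDGF array (median log2 change with PDGF of -0.03), so their UO126 values there are given apart and not as a contrast with the 13. Of the 80 other lowered genes that both tables hold, 4 were at least 1.5-fold lower with UO126 there (5%) and 6 higher (7.5%), with a median of -0.01. The 4 were Arf2, C2cd2, Ptprn2 and Sema7a, all dim in the MEK experiment. Together, 14 of 93 lowered genes were lower there (15.1%, against 3.77% of all genes) and 6 were higher. In the dimmest of 4 bins by mean signal, 8.51% of 47 lowered genes were lower, against 8.49% of all genes of that bin. Arf2, a small GTPase of the ARF family, had 71.6 and 40.9 units with PDGF and the inhibitors, against 134.7 with PDGF. It was also among the 7 of 15838 probe sets called for UO126 in the limma fit of the Src experiment (0.0442%). The 7 calls became 0 without the vehicle array, 0 without the PDGF array, 0 without the filter on low signal and 2 without the array of UO126 alone. Of these 7, 4 were lower: 3 probe sets of Arf2 (log2 changes of -1.11 to -1.68) and Emp1 (-1.22, adjusted p = 0.027). The 3 higher ones were H1f2 (0.67), Prkrip1 (1.98) and Neat1 (0.52, each with adjusted p = 0.037). Emp1, an epithelial membrane protein gene, had 9692 and 10044 units in the MEK experiment, against 10650 with PDGF.

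**Figure D3:**
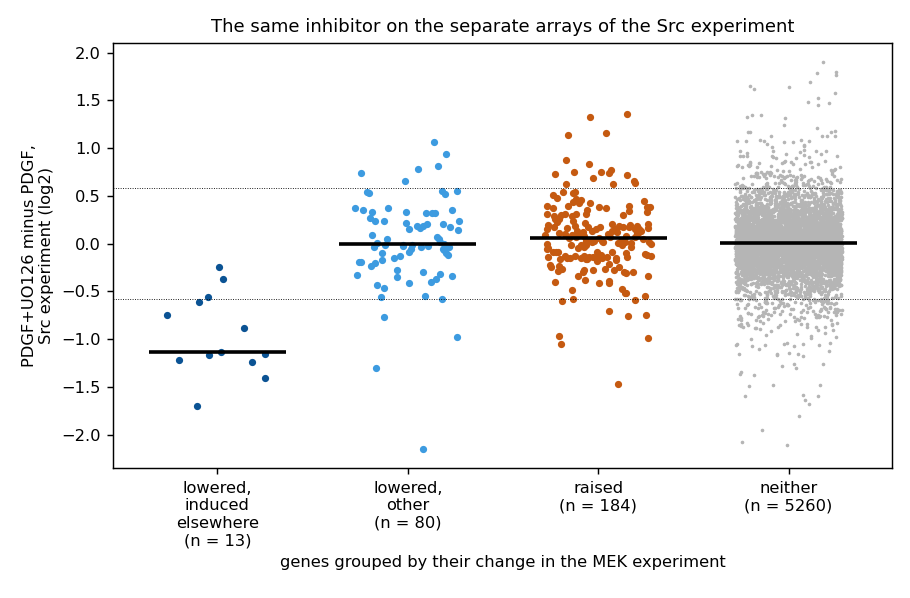
Log2 change with UO126 under PDGF in the Src experiment for genes grouped by their change in the MEK experiment, with 1 point per gene, the median as a bar and dotted lines at 1.5-fold. The 13 lowered genes that PDGF induced elsewhere lie below 0 with a median of -1.14. The medians of the other 80 lowered genes and of the 184 raised genes are -0.01 and 0.05. The 13 were required to be high on the PDGF array that the change subtracts, so the groups are not to be read as a contrast.

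Dimmer genes passed the fold rule more often. The 6366 genes were divided into 4 equal bins by mean signal. From the dimmest to the brightest bin, 92, 26, 18 and 8 genes were lowered and 137, 61, 22 and 7 were raised, and the median distance between the UO126 and PD98059 changes was 0.34, 0.24, 0.20 and 0.19 on the log2 scale. The dimmer 2 bins, called dim below, held 118 of the 144 lowered genes (81.9%) and 198 of the 227 raised genes (87.2%). In the brighter 2 bins, called bright below, 10 of 26 lowered genes were also at least 1.5-fold lower with UO126 in the Src experiment and 0 were higher. All 10 were among the induced genes already described, which were required to be high on the PDGF array that this change subtracts. Of the 14 other bright lowered genes, not chosen that way, 0 were at least 1.5-fold lower there (median -0.01). These values are given apart and not as a contrast. Over all 3096 bright genes in both tables the share lower was 2.03%. Among 28 bright raised genes measured there, 5 were at least 1.5-fold higher and 0 lower, against 2.26% of all 3096 genes that were higher.

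The strongest lowered genes by the weaker of the 2 changes were mostly dim. Of the 15, Dusp6, Nr4a2, Errfi1 and Procr were above the dimmest bin, and the others were Akp3, G0s2, Chmp1b, Glyr1, Esr1, Pzp, Il6, Sfrp4, Ighv3-6, Slc9a3r2 and H2aj. Akp3, an alkaline phosphatase gene, had 11.9 and 11.8 units with the inhibitors, against 119.8 with PDGF and 66.4 in untreated cells. Il6, which encodes interleukin 6, had 63.0 and 46.8, against 220.2 with PDGF and 49.2 in untreated cells. Procr, the endothelial protein C receptor gene, had 428.7 and 357.2, against 1293 with PDGF, and 450.9, 468.9 and 361.5 on the arrays without PDGF. The PDGF array therefore stood alone for Procr. In the repeat it had 450.7 with PDGF against 500.2 with vehicle, and in the Src experiment 276.1 with PDGF+UO126 against 208.8 with PDGF.

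That pattern was frequent. The PDGF array was the highest of the 6 arrays of the MEK experiment in 119 of the 144 lowered genes, and the lowest in 164 of the 227 raised genes. Over all genes it was highest in 17.8% and lowest in 19.8%. The fold rule itself puts it beyond the 2 inhibitor arrays, and the other 3 arrays were not used by the rule. Of 67 lowered genes at least 1.5-fold higher with PDGF than in untreated cells of the MEK experiment, 27 were so in the repeat (40.3%). Of 130 raised genes at least 1.5-fold lower with PDGF than in untreated cells, 35 were so in the repeat (26.9%). The same shares over all genes were not taken, so neither share can be called high or low. When the PDGF level was instead predicted from the untreated array plus the PDGF response of the repeat, 64 of the 144 lowered and 80 of the 227 raised genes kept both changes past 1.5-fold. By the same prediction 14 of the lowered genes were raised and 19 of the raised genes lowered, and over all genes 596 were lowered (9.36%) and 700 raised. The prediction replaces the PDGF array alone and keeps the 2 inhibitor arrays by which the genes were chosen. The numbers of genes kept are thus partly set by that choice, and the shares over all genes are no matching background. How much of either set comes from the single PDGF array was therefore not tested.

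The 26 bright lowered genes were the induced genes above apart from Nr4a2, and 14 others. Timp1, an inhibitor of metalloproteinases, had 4345 and 4144 units with PDGF and the inhibitors, against 7358 with PDGF, and 4210 in untreated cells. It had 2528 with PDGF+UO126 against 3820 with PDGF in the Src experiment, a log2 change of -0.58 at the edge of the rule. Gclc, named after its values were seen and a subunit of the enzyme that starts glutathione synthesis, had 578.5 and 566.2, against 1075 with PDGF and 433.5 in untreated cells. Its UO126 change in the Src experiment was -0.20. The other 12, chosen only by brightness, were Akap8, Cln8, Cpne1, Cryl1, Fez1, Gpx1, Med27, Mmut, Phf7, Procr, Rae1 and Tmem70. Of the list of matrix, protease and plasminogen genes, Timp1 and Plaur were lowered and Thbs2 raised out of 18.

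Promoter sequence is shown for 4 of the lowered genes and 1 raised gene, so that the genes that carry the result can be read beside their values. RefSeq promoter windows of 300 bases (250 before and 50 after the start site, build GRCm38.p6) were found for 101 of the 144 lowered and 180 of the 227 raised genes. Dusp6 and Nr4a2 follow from the rule on the strongest genes, and Fosb, Tiparp and Id3 were chosen after their values were seen, in place of the dim genes Akp3, Ctrl and Cd4. The windows are chr10:99262981-99263280 on the plus strand for Dusp6, chr2:57123954-57124253 on the minus strand for Nr4a2, chr7:19309996-19310295 on the minus strand for Fosb, chr3:65528197-65528496 on the plus strand for Tiparp and chr4:136143572-136143871 on the plus strand for Id3. Each is written 5′ to 3′ in the direction of transcription, with motif matches in capitals.
Dusp6: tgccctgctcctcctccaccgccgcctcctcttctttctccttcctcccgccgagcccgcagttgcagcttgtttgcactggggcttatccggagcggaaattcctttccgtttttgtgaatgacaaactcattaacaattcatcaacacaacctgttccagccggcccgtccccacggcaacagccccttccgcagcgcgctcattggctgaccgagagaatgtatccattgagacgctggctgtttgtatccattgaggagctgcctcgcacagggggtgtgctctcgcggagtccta
Nr4a2: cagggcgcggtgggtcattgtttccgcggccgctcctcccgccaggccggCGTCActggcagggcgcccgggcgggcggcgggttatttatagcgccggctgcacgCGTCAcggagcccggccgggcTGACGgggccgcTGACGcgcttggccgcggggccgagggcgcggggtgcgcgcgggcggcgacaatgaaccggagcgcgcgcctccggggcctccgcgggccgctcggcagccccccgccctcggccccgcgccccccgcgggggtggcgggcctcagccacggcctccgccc
Fosb: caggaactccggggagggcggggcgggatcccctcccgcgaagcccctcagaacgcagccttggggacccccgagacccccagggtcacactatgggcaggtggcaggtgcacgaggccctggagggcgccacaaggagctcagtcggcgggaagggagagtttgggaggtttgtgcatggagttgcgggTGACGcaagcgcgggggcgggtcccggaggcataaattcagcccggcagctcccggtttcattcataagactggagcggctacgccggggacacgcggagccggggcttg
Tiparp: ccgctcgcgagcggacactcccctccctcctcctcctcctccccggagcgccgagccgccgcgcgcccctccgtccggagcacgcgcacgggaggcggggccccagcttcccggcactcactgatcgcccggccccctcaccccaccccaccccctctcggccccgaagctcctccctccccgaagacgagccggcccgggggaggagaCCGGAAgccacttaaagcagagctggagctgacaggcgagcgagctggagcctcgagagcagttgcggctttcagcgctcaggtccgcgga
Id3: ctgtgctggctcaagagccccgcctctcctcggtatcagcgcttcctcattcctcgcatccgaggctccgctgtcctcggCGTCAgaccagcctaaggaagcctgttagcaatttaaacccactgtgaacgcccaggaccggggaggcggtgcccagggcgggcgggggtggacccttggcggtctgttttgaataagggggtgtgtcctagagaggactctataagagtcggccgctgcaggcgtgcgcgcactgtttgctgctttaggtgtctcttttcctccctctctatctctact

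Both strands were searched for the CArG box by name, the ETS core CCGGAA, the AP-1 site TGANTCA and the CRE half-site TGACG, none of which overlap in these windows. Nr4a2 held 4 CRE half-sites, Fosb and Id3 held 1 each, Tiparp held 1 ETS core, and the Dusp6 window held none of the 4 motifs. Of all 32851 windows, 1.63% held a CArG box, 14.9% an ETS core, 7.81% an AP-1 site and 20.8% a CRE half-site. Among measured genes with a window the shares were 1.82%, 31.0%, 6.74% and 36.1%. Among lowered genes they were 1.98%, 16.8%, 7.92% and 39.6%, and among raised genes 0.556%, 25.6%, 5.56% and 32.8%. A match is a description of letters in a short window.

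Of 15 genes on the list of ID, SNAI and SMAD feedback genes, Snai2, Id2 and Id3 were raised and 0 lowered, with 0 limma calls and a median mean change of 0.04, against 3.57% raised over all genes. Snai2, which encodes the repressor SLUG, had 2031 and 2136 units with PDGF+UO126 and PDGF+PD98059, against 831.0 with PDGF, and 1883, 2289 and 1335 with UO126, PD98059 and in untreated cells. The PDGF array was the lowest of the 6. Its mean log2 change was 1.28 (SE 0.19, adjusted p = 0.173 in limma). The repeat had 695.1 units with PDGF, against 1473 with vehicle. The Src experiment gave the other direction at low signal, with 76.0 units with PDGF+UO126 against 108.3 with PDGF.

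Id3 and Id2 encode inhibitors of basic helix-loop-helix factors. Id3 had 1044 and 1140 units with PDGF and the inhibitors, against 566.2 with PDGF, and 728.0, 1127 and 605.7 on the arrays without PDGF. On the arrays of the Src experiment it had 1071 with PDGF+UO126 against 597.7 with PDGF, a log2 change of 0.77. Id2 had 792.5 and 991.3, against 429.6 with PDGF, and 612.5 and 1092 with the inhibitors alone against 256.1 in untreated cells. Its higher signal with the inhibitors was thus seen without PDGF as well. Id1, of the same family, was inside the limit with UO126, at 879.8 and 1179 units against 632.8 with PDGF. It had 1014 with PDGF+UO126 against 452.5 with PDGF in the Src experiment.

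H1f2, a linker histone gene, was the brightest raised gene. It had 7253 and 10115 units with PDGF and the inhibitors, against 3780 with PDGF, and 7958 and 8875 with the inhibitors alone against 3803 in untreated cells. All 4 inhibitor arrays lay above both arrays without inhibitor. The Src experiment gave 10323 with PDGF+UO126 against 6473 with PDGF, and 8058 with UO126 against 4782 with vehicle, and the 2 UO126 arrays passed limma there together (0.67, SE 0.08, adjusted p = 0.037), a fit whose calls were lost as given above. Rgs3, a regulator of G protein signalling, had 2664 and 2375 units, against 1311 with PDGF, and 1970 with PDGF+UO126 against 1136 with PDGF in the Src experiment. Without PDGF its inhibitor arrays had 908.9 and 735.5, against 954.9 in untreated cells. Gadd45a, a growth arrest and DNA damage gene, had 602.6 and 698.9, against 346.7 with PDGF, and 758.5 and 1402 with the inhibitors alone against 417.1. Zfp703, a zinc finger gene, had 1311 and 1301 units, against 839.9 with PDGF.

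Altogether 17 of the 184 raised genes that both tables hold were at least 1.5-fold higher with UO126 in the Src experiment (9.24%, against 3.77% of all genes) and 9 were lower. Most raised genes were dim, so shares within a bin are the closer background. In the dimmest bin 7% of 100 raised genes were higher, against 7.22% of all genes of that bin. In the next bin it was 8.93% of 56, against 4.59%. Besides Gadd45a, H1f2, Id3, Rgs3 and Zfp703 the 17 genes were Acot8, Brd8, Chrnb1, Cipc, Dpp6, Enkd1, Fxyd1, Irf8, Kin, Rab3a, Sntb2 and Surf6, these latter all dim. The median UO126 change of the raised genes there was 0.05, against 0.01 over all genes. Of the 73 genes raised 2-fold, 58 were in both tables, and 0 of these were among the induced genes.

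**Figure D4:**
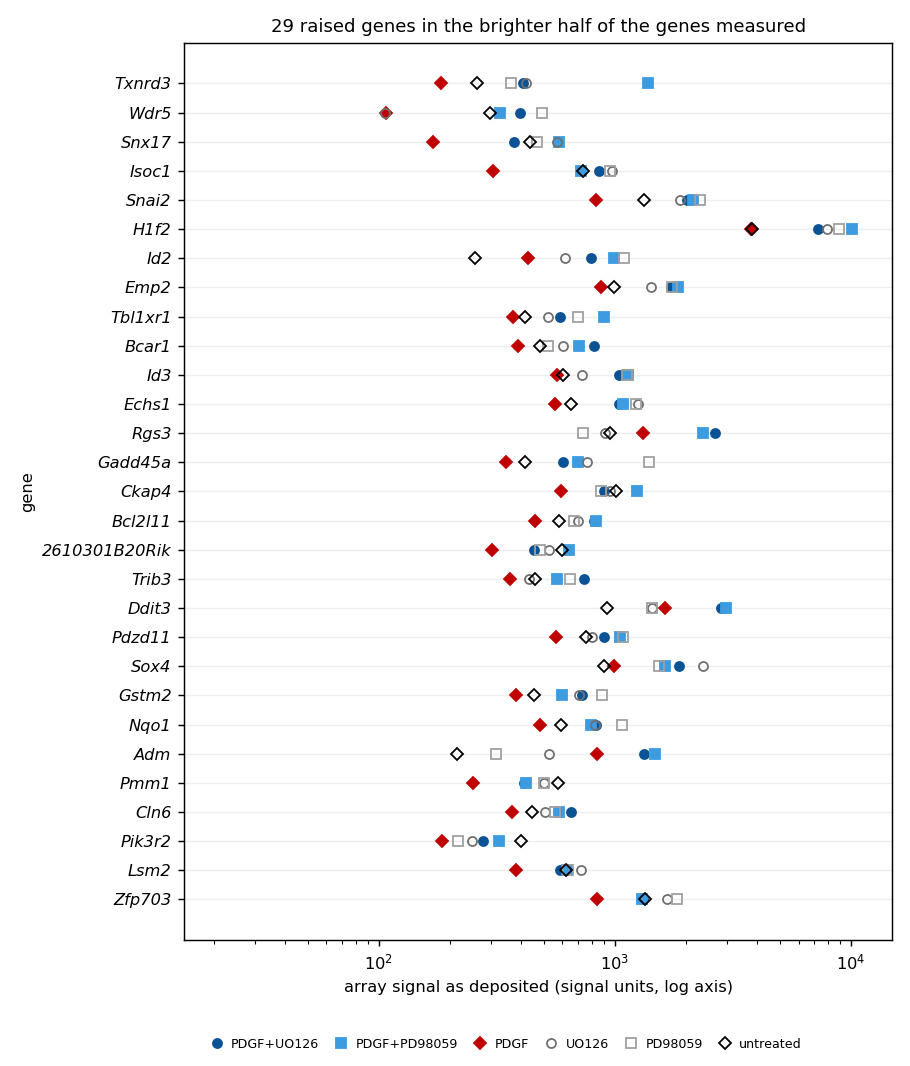
Deposited signal of the 29 bright raised genes, on a log axis, with 1 marker per array of the MEK experiment. H1f2, Id2 and Id3 show all 4 inhibitor arrays above both arrays without inhibitor, while for Isoc1, Snx17 and Lsm2 the PDGF array lies below the other 5.

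The 6 raised genes that follow were not past 1.5-fold with UO126 in the Src experiment. Emp2, Echs1 and Bcl2l11 were named after their values were seen. Isoc1, an isochorismatase domain gene, had 859.2 and 720.7 units, against 305.9 with PDGF and 736.1 in untreated cells (mean log2 change 1.31, SE 0.20, adjusted p = 0.173 in limma). Its UO126 change in the Src experiment was 0.38. Hyal2, a hyaluronidase, had 363.7 and 415.1, against 124.8 with PDGF and 403.8 in untreated cells, and 291.4 with PDGF+UO126 against 293.7 with PDGF in the Src experiment. Emp2 had 1732 and 1858 units, against 870.7 with PDGF, and a change of -0.18 in the Src experiment. Echs1, a mitochondrial enzyme of fatty acid oxidation, had 1041 and 1085, against 555.9 with PDGF, and 1257 and 1231 with the inhibitors alone, against 650.5 in untreated cells. Bcl2l11, which encodes the pro-apoptotic protein BIM, had 819.5 and 832.8, against 457.3 with PDGF, but its 3 probe sets ranged from -0.22 to 1.43 in mean change. Its change in the Src experiment was 0.02. Thbs2, a thrombospondin gene, had 384.2 and 363.8, against 171.9 with PDGF.

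Of the genes induced by PDGF elsewhere, Adm and Ddit3 were raised. Adm, which encodes the peptide adrenomedullin, had 1324 and 1478 units, against 837.9 with PDGF and 213.5 in untreated cells. Ddit3, which encodes the stress response factor CHOP, had 2823 and 2972, against 1626 with PDGF and 927.8 in untreated cells. Their UO126 changes in the Src experiment were 0.22 for Adm and -0.05 for Ddit3.

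The strongest raised genes by the weaker change were Ctrl, Cd4, Zbtb14, Pmf1, Tcp11, Trabd, Pbx2, Rhd, Adam28, Ppp2r5d, Egf, Wdr5, Mecom, Hyal2 and Zfp276, and of these 15 Wdr5 was bright. Ctrl, which encodes a chymotrypsin-like protease, had 127.2 and 165.6 units with PDGF and the inhibitors, against 18 with PDGF, and 168.2 and 141.4 with the inhibitors alone against 28.0 in untreated cells. All 4 inhibitor arrays were above both arrays without inhibitor. Cd4, a T cell surface gene, had 184.1 and 183.8, against 40.3 with PDGF, but 209.7 in untreated cells. Of 9 leukocyte markers on the array, 5 were above the filter, and Cd68 was the one of these that was raised.

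Among the 52 induced genes that were neither lowered nor raised, 7 were at least 1.5-fold lower on the PDGF+UO126 array but not on the PDGF+PD98059 array, and 7 the other way round. Dnajb1, a cytosolic heat shock chaperone, had 774.8 units with PDGF+UO126 and 1316 with PDGF+PD98059, against 1674 with PDGF. Its Src experiment values were 1983 with PDGF+UO126 against 7610 with PDGF. Ptgs2, Tgif1 and Myc were named after their values were seen. Ptgs2, which encodes cyclooxygenase 2, had 3137 and 1579, against 3169 with PDGF, and 5148 with PDGF+UO126 against 3501 with PDGF in the Src experiment. Ier3 had 3199 with PDGF+UO126 against 1443 with PDGF there, and Fos 989.8 against 719.9. In both experiments the PDGF+UO126 signal of Ptgs2, Ier3 and Fos was above that of PDGF or below it by less than 1.5-fold. The PDGF+PD98059 signal of all 3 was below that of PDGF by more than 1.5-fold, at a dose that differed. Tgif1, a transcriptional repressor, had 1361 and 1882, against 2344 with PDGF, and 1442 with PDGF+UO126 against 2659 with PDGF in the Src experiment. Myc had 352.8 and 288.9, against 501.9, and 960.2 with PDGF+UO126 against 1630 with PDGF in the Src experiment.

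**Figure D5:**
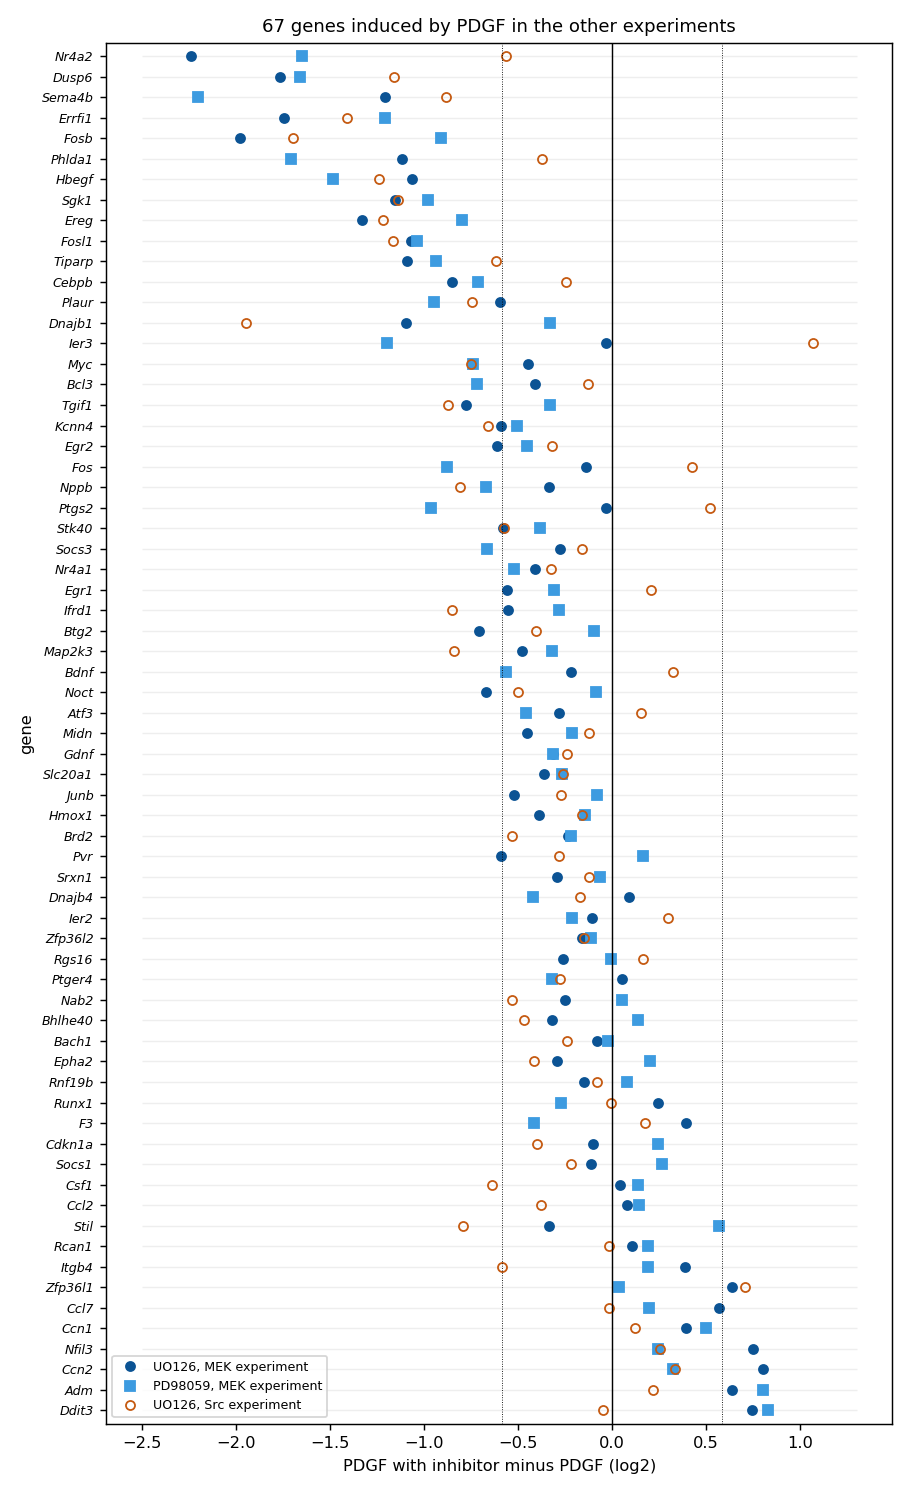
Log2 change under PDGF with each inhibitor of the MEK experiment, and with UO126 of the Src experiment, for the 67 genes induced by PDGF in the other experiments, sorted by their mean change in the MEK experiment. The 13 genes from Nr4a2 to Plaur have both filled markers beyond the left dotted line, which marks 1.5-fold, and Ier3, Fos and Ptgs2 have PD98059 markers well to the left of their UO126 markers.

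The widest distances between UO126 and PD98059 over all genes were found in Ibsp, Rap1gap, Dlg4, Lag3, Scx and Spib. Scx, a tendon transcription factor gene, had 689.2 units with PDGF+UO126 and 131.9 with PDGF+PD98059, against 140.5 with PDGF. Spib had 215.7 and 39.6, against 191.7 with PDGF. All 6 were dim.

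Several gene groups outside these showed few or no members past the rule. Of 23 cytoskeletal genes of SRF and its MRTF cofactors 0 were lowered and 0 raised. Ccn2 and Ccn1, matricellular genes of that list, had 4144 and 2929 units against 2288 with PDGF, and 461.6 and 509.9 against 352.7. The lists of NF-kB subunits and feedback genes (14 genes), cholesterol synthesis (15), G1 cyclins and CDK inhibitors (14), glucose transport and glycolysis (15), AU-rich element binding proteins (9), TGF-beta family ligands (6) and housekeeping genes (10) also had 0 lowered and 0 raised. Ccl2 and other chemokines gave 0 lowered and 1 raised of 7, the dim Ccl8. Of 18 ribosome biogenesis genes 1 was lowered (Nolc1, 25.6 and 16.2 units against 74.8). Of 14 growth factors and cytokines, Il6 was lowered and Adm and Ptn raised. The 22 FOXO targets held 1 raised gene, Cdkn1b, a CDK inhibitor gene with 118.6 and 85.2 units against 42.5 with PDGF, and 0 lowered. Elk3 (119.1 and 168.9 against 48.3) was raised among 10 ETS and TCF factors, Plk1 (257.4 and 281.0 against 169.9) among 20 replication and mitosis genes, Ddit3 among 21 heat shock and unfolded protein genes, and Ifit2 (430.9 and 494.5 against 273.7) among 9 interferon response genes. None of the 24 lists held a limma call, against 0% of all probe sets.

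Without PDGF, both inhibitors were at least 1.5-fold lower than untreated in 1.98% of the 6366 genes and higher in 3.93%, which is 250 genes. These arrays are separate from the 3 arrays under PDGF. Of the 144 genes lowered under PDGF, 8 were also lowered without it (5.56%) and 9 raised (6.25%). Of the 227 genes raised under PDGF, 34 were also raised without it (14.98%) and 10 lowered (4.41%). Dim genes passed more often here too, so shares over all genes are no matching background. In the dimmest bin 5.22% of all genes were lowered without PDGF and 8.67% raised. The shares there were 6.52% and 7.61% for the genes lowered under PDGF, and 6.57% and 16.8% for those raised. The limma fit called 2 of 8695 probe sets without PDGF (0.023%), 1 of Actb and 1 of Pim3, named because they were called. The test of whether MEK inhibition differed with and without PDGF called 0 of 8695 (0%), with a smallest adjusted p of 0.345 and 452 probe sets at an unadjusted p under 0.05. The 13 lowered and induced genes had median changes of 0.06 with UO126 and -0.14 with PD98059 without PDGF, with 0 lowered by both and 2 raised by both, Ereg and Tiparp.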

How the data were processed

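Array signal was analysed for 9 arrays of the MEK experiment and the repeat, and for 8 arrays of the Src experiment on another design, 1 array per condition. Each probe set has 1 deposited intensity, on a linear scale, which the authors had scaled to a common mean of about 500.3 units in the 9-array table after trimming 2% at each end, as the values show. The software is not given in the sources used here, nor is the genome build. Control probe sets (66 of 12488 and 64 of 22690) were left out. Values were quantile normalised within each table and taken as log2 of the value plus the 20th percentile (21.2 and 36.3 units), which understates changes of dim genes. Filtering out the 30% with the lowest means kept 8695 and 15838 probe sets. Gene symbols came from the platform annotation (10855 of 12488 probe sets had 1 gene, 396 several and 1237 none listed), updated through Entrez IDs with the RefSeq table for GRCm38.p6, and each gene was read at its brightest probe set. Changes named in the text are on this log2 scale, and signals are as deposited.

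limma 3.58.1 in R 4.3.3 was fitted with a mean per condition (UO126 and PD98059 as replicates, 2 residual degrees of freedom), eBayes with a trend, and Benjamini-Hochberg adjustment over all probe sets at a threshold of 0.05. For the Src experiment an additive fit over 8 arrays was used (3 residual degrees of freedom). The contrast of MEK inhibition under PDGF was tested on simulated data, with planted changes of at least 4-fold. Smaller changes, the other contrasts and the fit of the Src experiment were not simulated. Named genes were the 15 lowest and 15 highest by the weaker inhibitor change, the 5 smallest p in each direction, up to 4 genes per list by size of change, and the 6 genes with the widest distance between inhibitors. Genes that moved the same way in the Src experiment and the bright genes were added after values were seen. The members, lists and thresholds were chosen with earlier results of these data known. Precision is limited by how few arrays there are. Alternatives changed scaling, offset, filters, probe choice, fit, fold threshold and left out arrays.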

Additional observations from a re-analysis of the deposited data

Results flagged for a closer look

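Under the same inhibitors, 4 of the genes named above were at least 1.5-fold lower or higher with PDGF on both arrays and went the other way by as much without PDGF on both arrays. For Tiparp the change with PDGF minus that without it was -2.02 on the log2 scale, for Ereg -2.39, for H2aj -2.60 and for Trabd 2.69. Ereg had 267.1 and 408.0 units with PDGF and the inhibitors against 731.0 with PDGF, but 111.1 and 80.2 with the inhibitors alone against 27.1 in untreated cells. That untreated value was close to the 21.2 units added before taking logs, and the vehicle array of the repeat had 61.1 for Ereg. For each gene both changes without PDGF share the single untreated array. Tiparp had 996.5 and 1096 against 2109, but 359.6 and 322.1 against 157.7. H2aj (30.5 and 12.7 against 116.0, and 73.3 and 34.3 against 16.6) and Trabd (151.9 and 120.0 against 27.3, and 50.5 and 75.2 against 130.5) were dim. None of these differences passed the limma test of the difference itself (smallest adjusted p over all probe sets 0.345). Over all genes, 19 showed such a turn past 1.5-fold, 9 lowered with PDGF and raised without it and 10 the reverse. The Src experiment also held UO126 alone and vehicle, both without PDGF. UO126 alone gave log2 changes there of -0.39 for Ereg, 0.34 for Tiparp, -0.01 for H2aj and 0.05 for Trabd. None of the 4 genes was past 1.5-fold without PDGF in that experiment.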

How the results depend on the processing

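Each result was recomputed with other scalings, offsets, filters, probe choices and fits. The count of 0 calls under PDGF held in all alternatives except that 1 probe set was called without the UO126 array (range 0 to 1 on leaving out either inhibitor array). The 2 calls without PDGF became 4 on deposited values, 1 with an offset of 5, an offset of 100, without promiscuous probe sets or in the additive fit, 0 without the low filter or without a trend, and 0 to 0 when either inhibitor array was left out. The 7 calls for UO126 in the Src experiment became 0 without the low filter, and 0 to 8 on leaving out 1 array, with 0 without the vehicle or the PDGF array and 2 without the UO126 array.

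Of the fold counts, the 144 lowered genes became 54 with an offset of 100, 276 without the filter, 52 with the lowest 50% left out, 35 at 2-fold, 596 against the predicted PDGF level (added after the data were seen) and 405 to 445 with 1 inhibitor array. The 227 raised genes became 73 with an offset of 100 and likewise 73 at 2-fold, 93 with the lowest 50% left out, 700 against the predicted level and 433 to 500 with 1 inhibitor array. The 14 lowered genes also lower in the Src experiment became 25 on deposited values, 26 with an offset of 5, 9 with an offset of 100, 44 without the filter and 4 at 2-fold. The 17 raised genes also higher there became 6 with an offset of 100, 31 without the filter, 9 with the lowest 50% left out and 2 at 2-fold. Higher offsets, stricter filters and thresholds pass fewer dim genes by construction, and the cause of the other shifts was not tested.

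Of 884 recomputed changes of 71 named genes, 9 turned sign, all in the genes whose inhibitors differed most: leaving out 1 inhibitor array gave -1.52 to 0.89 for Ibsp, -1.15 to 1.24 for Rap1gap, -1.79 to 0.43 for Dlg4, -1.38 to 0.82 for Lag3, -0.037 to 2.15 for Scx and -1.79 to 0.24 for Spib. Rap1gap was -0.0043 with an offset of 5 and -0.14 in the additive fit, where Lag3 was 0.090. Dim genes rest on signals near the offset, and single arrays limit every comparison.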

Other observations

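Of the bright lowered genes that PDGF had not induced elsewhere, 3 that encode enzymes are given here, picked by their function after values were seen. Mmut, which encodes the mitochondrial methylmalonyl-CoA mutase, had 521.5 and 468.1 units with PDGF+UO126 and PDGF+PD98059, against 979.8 with PDGF and 551.7 in untreated cells. Gpx1, a glutathione peroxidase, had 585.8 and 568.9, against 940.7 with PDGF and 779.6 in untreated cells. Cryl1 had 260.2 and 378.3, against 742.6 with PDGF, though its 2 probe sets ranged from -1.15 to -0.05 in mean change. In the Src experiment the UO126 changes of Mmut, Gpx1 and Cryl1 were -0.20, -0.01 and 0.09.

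Among the bright raised genes, Nqo1 and Gstm2, both enzymes of detoxification, had 831.8 and 788.9 units against 482.9 with PDGF, and 728.2 and 595.0 against 379.5. For each, 2 probe sets were kept, and these ranged from 0.06 to 0.73 for Nqo1 and from -0.33 to 0.75 for Gstm2. Sox4, a developmental transcription factor gene, had 1863 and 1636, against 991.9 with PDGF, and a UO126 change of 0.53 in the Src experiment. Trib3, a pseudokinase gene of the stress response, had 738.6 and 570.5, against 359.0 with PDGF, and a change of 0.40 there. Txnip, a FOXO target, stayed inside the limit on the UO126 array, with 701.6 and 743.6 against 474.1 with PDGF, and had 575.2 with PDGF+UO126 against 255.6 with PDGF in the Src experiment. Its 2 probe sets went in opposite directions, with mean changes of -0.94 and 0.59.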
